A study of Drosophila melanogaster with 16 samples.

Results

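The response of DmD8 cells to Notch activation was set against the response of Kc cells, gene by gene, to find transcripts whose responses were unequal in the lines. For each feature, meaning a named gene or a single unnamed probe, the mean log ratio of 5 DmD8 arrays minus the mean log ratio of 6 Kc arrays was taken. The 2 dye orientations had equal weight in each mean. This used 11 of the 16 deposited arrays. Of 16580 features on the array, 12952 could be tested, and 8841 of these were named genes. A feature needed a value on at least 3 arrays of each line, with both orientations present.

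Each array was a 2-colour array of long oligonucleotides on which RNA of Notch-activated cells competed with a comparison RNA. Both are Drosophila lines and were grown at 25C in Schneider's medium with serum and insulin. DmD8 is known as a line from larval imaginal discs and Kc as an embryonic line with blood cell character. Activated cells of both lines received 2 mM EDTA in PBS for 30 min. The Kc comparison RNA came from control cells given PBS alone. For DmD8 the same values were deposited under a pair of labels. One set names control cells given PBS alone, and the other names cells pre-treated with 300 µM DFK-167, which blocks presenilin, before they were activated. Across 71019 probe values the pair of columns differed in 24, never by more than 4.87e-08, so the DmD8 values were counted once. The comparison RNA of DmD8 may therefore differ in kind from that of Kc, and the difference between the lines would then also hold any effect of the inhibitor. Each line is a single culture line and was run as a separate experiment, so line and experiment cannot be told apart. Ratios within a line give no level between lines, so the labelled cell types were not checked by marker levels.

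Notch is a receptor that is cut when it is activated. The ADAM protease kuz sheds its outer part, and γ-secretase, which holds presenilin and pen-2, frees the inner part. The inner part enters the nucleus and switches on target genes with the DNA-binding protein Su(H). The best known targets are the genes of the Enhancer of split, or E(spl), complex, most of whose products are repressors with a basic helix-loop-helix (bHLH) or small Bearded-family proteins. EDTA removes the calcium ions that hold the parts of the receptor together, so that Notch is cut without its ligand. It binds other divalent metal ions as well.

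Values are log ratios of activated over comparison RNA as deposited. Their log base is not stated, so none is turned into a fold. The sign is not stated either. A positive value is read as a rise on activation because of how the labels order the dyes and because E(spl) genes are known to be switched on, so the direction of those genes is no independent evidence. The dye swap arrays (4 and 5 of DmD8, 4 to 6 of Kc) were taken as already turned. With their sign turned, 0 features passed the limma test of the difference, against 1415 as deposited (752 and 3221 features at an unadjusted p under 0.05). Errors are standard errors (SE) of the limma fit over the arrays with a value, at most 5 of DmD8 and 6 of Kc. Adjusted p values are from limma with Benjamini-Hochberg adjustment over all 12952 features. The labels give 3 biological replicates per line, so swaps probably repeat an RNA, and the errors over arrays are then too small. The labels do not tie a swap to its replicate. The swaps were therefore also averaged with replicates in each of the 36 possible ways, and "under every pairing" means an adjusted p under 0.05 in all 36. Each way used only averages with both arrays present and left out the DmD8 replicate that had no swap. A feature that could not be tested in some pairing does not count as passing. Of the 1415 features, 1347 were tested in all 36.

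Values were present for 13353 to 15638 of 17258 probes per array, and array medians lay between -0.13 and 0.16. DmD8 array 3 had small ratios. Over 913 features that changed in DmD8, its median absolute log ratio was 0.30 against 0.49 on the other DmD8 arrays. Kc arrays 2 and 5 stood above the other 4 Kc arrays in 6 of 14 heat shock genes tested, with list medians of 0.47 and 0.29 against -0.07 to 0.01. Results were also taken without them.

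Of the 12952 features, 1415 differed between the lines (10.9%; limma adjusted p under 0.05). DmD8 responded more positively than Kc in 572 of them (4.42%) and more negatively in 843 (6.51%). Under every pairing 267 differed, 69 higher and 198 lower. These are 2.06%, 0.533% and 1.53% of all 12952, some of which could not be tested in all 36. When each swap was averaged with the replicate whose number is 3 lower, 487 differed, 137 higher and 350 lower. The split depended on scaling. With arrays centred on their medians, 742 were higher and 634 lower, and the median difference over all features moved from -0.06 to -0.0049. Without DmD8 array 4 the count was 808, without DmD8 array 3 it was 1176, and without Kc arrays 2 and 5 it was 859. The absolute difference was over 1 in 160 features, 124 of them lower in DmD8 than in Kc.

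Most features called in a line were called in that line alone. Orientation-averaged responses of the lines correlated at 0.02 over 10060 features with a value on every array, a description across features that share arrays and probes. Taken on its own, DmD8 had 399 features that rose (3.08%) and 539 that fell (4.16%). Kc had 919 that rose (7.1%) and 623 that fell (4.81%). In both lines, 124 features were called the same way (0.957%) and 111 in opposite ways (0.857%). Whether these counts exceed what the call rates of the separate lines would give was not tested. Among the 1415 features that differed, 351 rose in Kc only, 286 fell in DmD8 only, 273 fell in Kc only and 169 rose in DmD8 only. A further 82 fell in DmD8 and rose in Kc, and 29 did the reverse. In 201 features neither line passed on its own. In cultures measured in bulk, fewer cells that make a transcript and less of it per cell cannot be told apart.

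**Figure D1:**
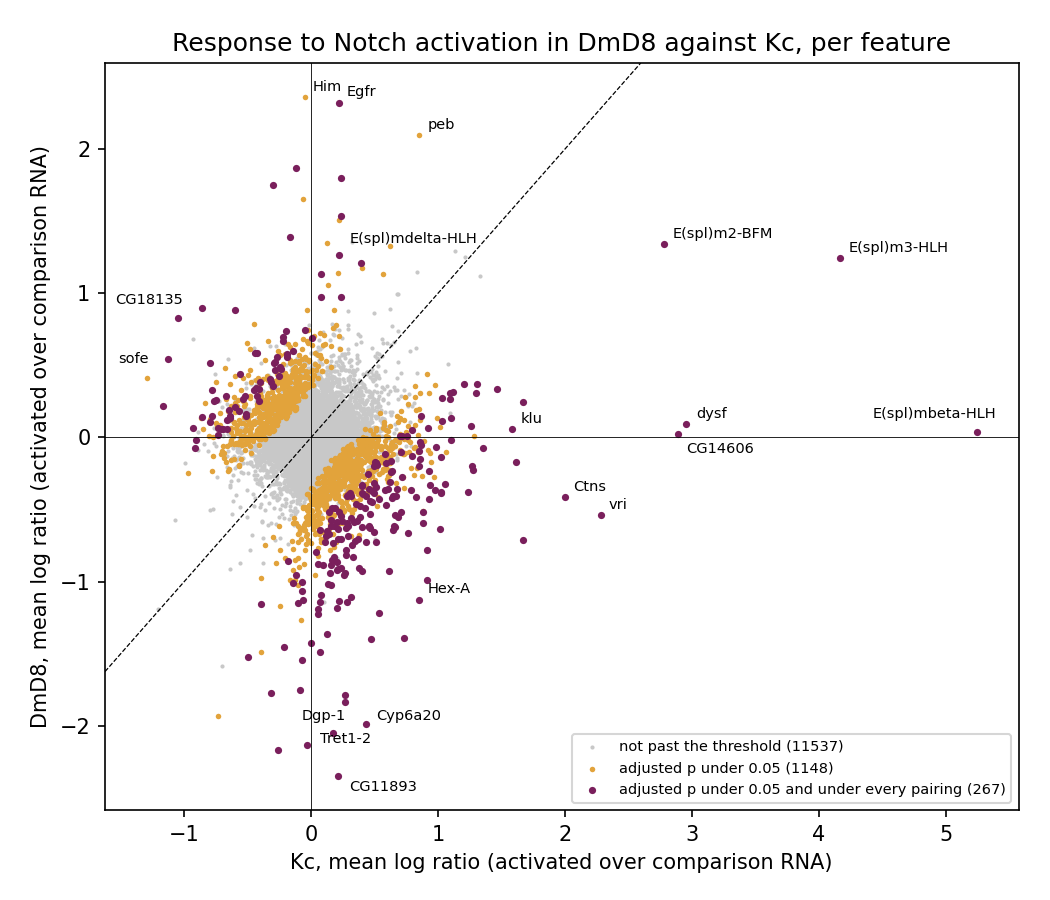
Mean log ratio of each of 12952 features in Kc (x axis) against DmD8 (y axis), each averaged over the dye orientations. Features on the dashed line responded equally; purple points (267) differed under every pairing, orange points (1148) passed the adjusted p only, and the E(spl) genes at the right and Egfr at the top lie far from the line.

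The difference between the lines could be taken in each dye orientation on its own. Its value on arrays whose activated RNA carried Cy5 correlated at 0.62 with that on the dye swap arrays over 10060 features. Of 1408 features that differed and had both values, 1387 kept the sign in both orientations, against 8421 of the 12763 tested features with both. The 1408 were picked by the mean of these same arrays, which favours equal signs, so their share is no separate evidence. Responses within a single line did not correlate in this way, since the orientations correlated at -0.04 within DmD8 and 0.01 within Kc. The dye part of the ratios, which turns its sign with the labelling, had a correlation of 0.78 between the lines. Among the 10060 features with a value on every array, the DmD8 and Kc values did not overlap in 642 (6.38%), with DmD8 above in 249 (2.48%) and below in 393 (3.91%).

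**Figure D2:**
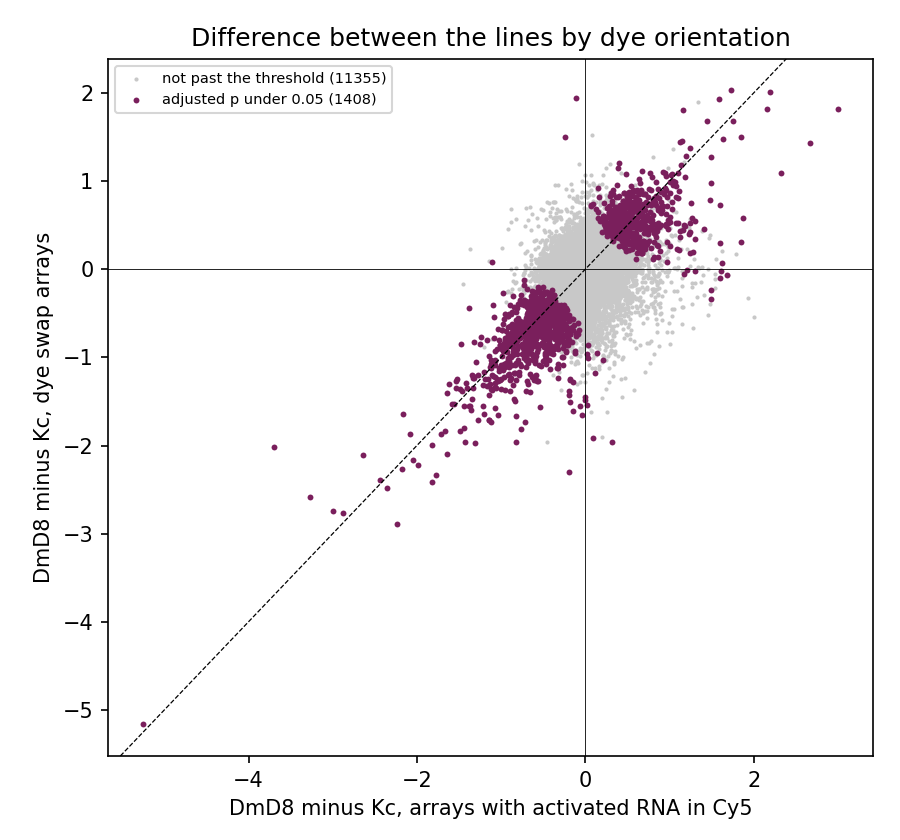
Difference DmD8 minus Kc, in log ratio units, on arrays whose activated RNA carried Cy5 (x axis) against the dye swap arrays (y axis) for 12763 features. Purple points (1408) differed between the lines in the fit of all arrays, and 1387 of them have the same sign on both axes, which this selection favours.

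The E(spl) genes responded unequally in the lines. Of 4 tested bHLH repressor genes of the complex, 1 was higher in DmD8 and 2 were higher in Kc (75%, beside 13.5% of all named genes). E(spl)mbeta-HLH had log ratios of 0.14, -0.26, -0.15, 0.27 and 0.06 on the DmD8 arrays. In Kc it ran from 4.55 to 6.51 (median 4.83). The values of the lines lie far apart, and the difference of -5.21 ± 0.35 (adjusted p = 7.29e-06) held under every pairing. E(spl)m3-HLH rose in both lines, but less in DmD8, where it had 1.31, 0.87, 0.33, 1.80 and 1.49. Its Kc values ran from 3.92 to 4.55 (median 4.10), and the difference was -2.93 ± 0.18 (adjusted p = 4.71e-06). All DmD8 values lay below all Kc values. E(spl)mdelta-HLH showed the opposite order. It had 1.66, 1.83, 0.85, 0.89 and 1.27 in DmD8 and -0.19 to 0.67 (median 0.19) in Kc, with a difference of 1.05 ± 0.18 (adjusted p = 0.00389) and no overlap. It rose in DmD8, and Kc stood at 0.22 ± 0.12. E(spl)m7-HLH rose in both lines, with 1.33, 1.82, 1.01, 0.95 and 1.26 in DmD8 and 0.67 to 1.66 (median 1.28) in Kc. No difference was detected, and the 95% interval ran from -0.42 to 0.50.

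The Bearded-family genes of the complex, which encode small proteins that act on Notch signalling, were also unequal. E(spl)m2-BFM had 1.61, 1.39, 0.96, 1.47 and 1.25 in DmD8 and 2.05 to 3.27 (median 2.95) in Kc. It rose in both lines and less in DmD8 on every array, with a difference of -1.44 ± 0.26 (adjusted p = 0.00491). E(spl)m6-BFM had 1.88, 1.14, 0.70, 1.43 and 0.66 in DmD8 and -0.41 to 0.71 (median 0.38) on 5 Kc arrays. The ranges overlapped, and the difference of 0.93 ± 0.23 (adjusted p = 0.029) was lost without DmD8 array 4 or Kc array 1, 4 or 5 and passed in 19 of 36 pairings. E(spl)malpha-BFM rose in both lines, at 1.14 ± 0.19 in DmD8 and 0.83 ± 0.19 in Kc, and the interval of the difference was -0.27 to 0.90. Tom, a Bearded-family gene outside the complex, and gro, the co-repressor that bHLH repressors recruit, had differences of -0.24 ± 0.35 and -0.11 ± 0.13, neither of which passed. In the RefSeq gene order of the complex on arm 3R, which runs from E(spl)mdelta-HLH at place 1 to gro at place 13, E(spl)mbeta-HLH has place 3, E(spl)m3-HLH place 7 and E(spl)m7-HLH place 11. E(spl)m5-HLH, E(spl)m4-BFM, Kaz-m1, Brd and Ocho lacked values for the test. E(spl)m4-BFM lay between 0.58 and 1.06 on 4 DmD8 arrays and between -0.17 and 0.33 on 3 Kc arrays.

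**Figure D3:**
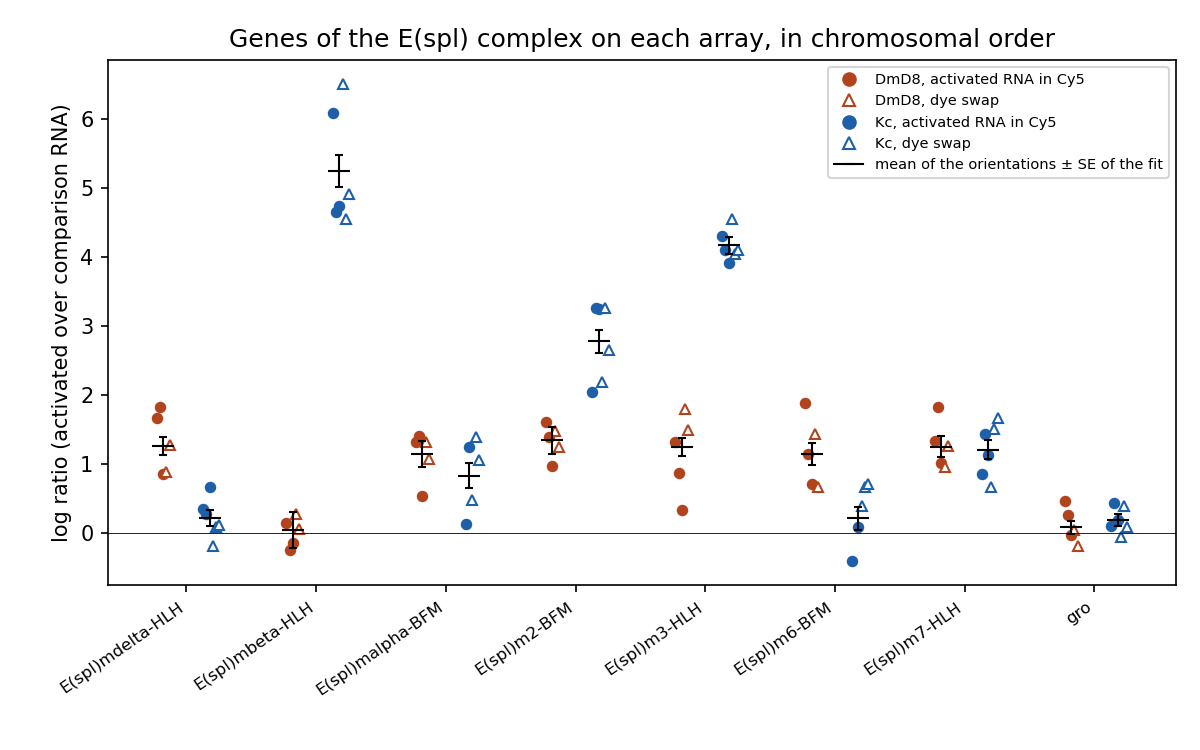
Log ratio of 8 genes of the E(spl) complex on each DmD8 (red) and Kc (blue) array, in chromosomal order, with the mean ± SE of the fit in black; filled circles have activated RNA in Cy5 and open triangles are dye swaps. High values in Kc are seen for E(spl)mbeta-HLH and for E(spl)m3-HLH, and in DmD8 for E(spl)mdelta-HLH, while E(spl)m7-HLH overlaps.

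Other reported Notch targets also split. Of 13 tested, 3 were higher and 2 lower in DmD8 (38.5%, beside 13.5% of all named genes), or 2 and 1 without DmD8 array 5. Him, an inhibitor of muscle differentiation, had 3.25, 2.69, 0.94, 2.75 and 2.11 in DmD8 against -0.76, -0.66, 0.89 and 0.32 on 4 Kc arrays. All DmD8 values were above the Kc values, and the difference was 2.41 ± 0.41 (adjusted p = 0.00616; 32 of 36 pairings). peb, the zinc finger factor hindsight, rose in both lines, with 2.40, 2.88, 1.57, 1.72 and 2.09 in DmD8 and 0.21 to 1.45 (median 0.90) in Kc. Its difference of 1.24 ± 0.27 (adjusted p = 0.0124) was lost without DmD8 array 5. klu, the zinc finger factor klumpfuss, did the reverse of Him. It had 0.17, 0.10, 0.01, -0.26 and 0.30 in DmD8 and 1.28 to 1.92 (median 1.60) in Kc, and the difference was -1.52 ± 0.12 (adjusted p = 4.01e-05). The lines did not overlap, and klu rose in Kc. zfh1, a zinc finger and homeodomain repressor, had a smaller difference of -0.53 ± 0.14, which was lost when any 1 of 7 arrays was left out.

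The EGF receptor gene had the highest difference among named genes that passed under every pairing. Egfr had 3.25, 2.73, 1.85, 2.11 and 1.96 in DmD8 and -0.09 to 0.48 (median 0.27) in Kc. Every DmD8 value lay above every Kc value, and the difference was 2.10 ± 0.20 (adjusted p = 0.000126). aos, which encodes a secreted inhibitor of the receptor, had 2.32, 2.23, 0.68, 1.30 and 1.36 in DmD8 and -0.32 to 0.75 (median 0.18) in Kc, where the ranges overlapped through DmD8 array 3. Its difference was 1.30 ± 0.26 (adjusted p = 0.00892). Of 15 tested pathway genes, 4 were higher and 2 lower (40%, beside 13.5% of all named genes). The count was 3 higher and 1 lower without DmD8 array 5, Kc array 1, 4 or 5, or both Kc arrays 2 and 5. Under every pairing 2 were higher and 0 lower. The median difference of the 15 genes was -0.08 beside -0.06 over all features. Of 15 tested components of the Notch pathway 2 differed, near the share over all features: pen-2, a γ-secretase subunit (0.54), and kuz (-0.53), which fell and rose in Kc respectively and were past the threshold there only.

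Among the 12 highest and 12 lowest differences under every pairing were further genes that were past the threshold on their own in only 1 line. At the high end stood drl, a Ryk-type receptor (1.56 ± 0.26, adjusted p = 0.0033), CBP, a calcium-binding protein (1.56 ± 0.17), and CG14275 (2.05 ± 0.24, with 5 Kc arrays). All 3 rose in DmD8. In drl the DmD8 values were 1.89, 2.18, 0.71, 1.96 and 2.05, with array 3 apart, and the Kc values ran from -0.05 to 0.96 (median 0.11). CG42807 had a difference of 1.99 ± 0.41 but overlapping values. It is the mean of 2 probes, and the only probe that could be tested alone gave 2.19 and did not pass. Its Kc values were negative on arrays 1 to 3 and positive on the dye swaps. Sirup, an assembly factor of a mitochondrial complex, differed by 1.48 ± 0.28, also with overlapping values. It stood at 0.88 ± 0.21 in DmD8 and at -0.60 ± 0.19 in Kc, where it did not pass. cbt, a zinc finger factor, fell in Kc to -1.17 ± 0.19 and stood at 0.22 ± 0.21 in DmD8. At the low end, CG11893 fell in DmD8 to -2.35 ± 0.26 and Dgp-1, a GTP-binding protein, to -2.05 ± 0.08. CG11893 had -2.90, -2.56, -0.48, -3.01 and -2.42 on the DmD8 arrays, again with array 3 apart.

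A group of genes fell in one line and rose in the other. vri, which encodes a clock repressor of the bZIP class, had -0.51, -0.61, -0.85, -0.35 and -0.50 in DmD8 and 1.77 to 2.57 (median 2.44) in Kc. All DmD8 values were negative and all Kc values positive, and the difference was -2.82 ± 0.17 (adjusted p = 4.59e-06). Ctns, which exports cystine from the lysosome, had -0.56, -0.54, -0.16, -0.56 and -0.26 against 1.77 to 2.17 (median 2.02) and a difference of -2.41 ± 0.12. Cyp6a20, a cytochrome P450, had -1.72, -1.69, -1.25, -2.77 and -2.08 against -0.12 to 0.99 (median 0.39). The lines did not overlap, and the difference was -2.42 ± 0.15 (adjusted p = 5.56e-06). CG14961 fell in DmD8 to -0.71 ± 0.10 and rose in Kc to 1.67 ± 0.09. Mrp4, an ABC transporter, fell to -1.39 ± 0.10 and rose to 0.73 ± 0.09, and Hex-A, a hexokinase, fell to -1.12 ± 0.09 and rose to 0.85 ± 0.08. The reverse was seen in 25 named genes, against 63 that fell in DmD8 and rose in Kc. sofe rose to 0.55 ± 0.09 in DmD8 and fell to -1.13 ± 0.08 in Kc, on 11 of 11 arrays. CG18135, Dph1, an enzyme of diphthamide synthesis, and dah also rose in DmD8 and fell in Kc. Their differences were 1.88 ± 0.16, 1.76 ± 0.18 and 1.31 ± 0.10, and CG18135 stood at -0.03 on DmD8 array 3. Of these 88 genes, 72 differed under every pairing.

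**Figure D4:**
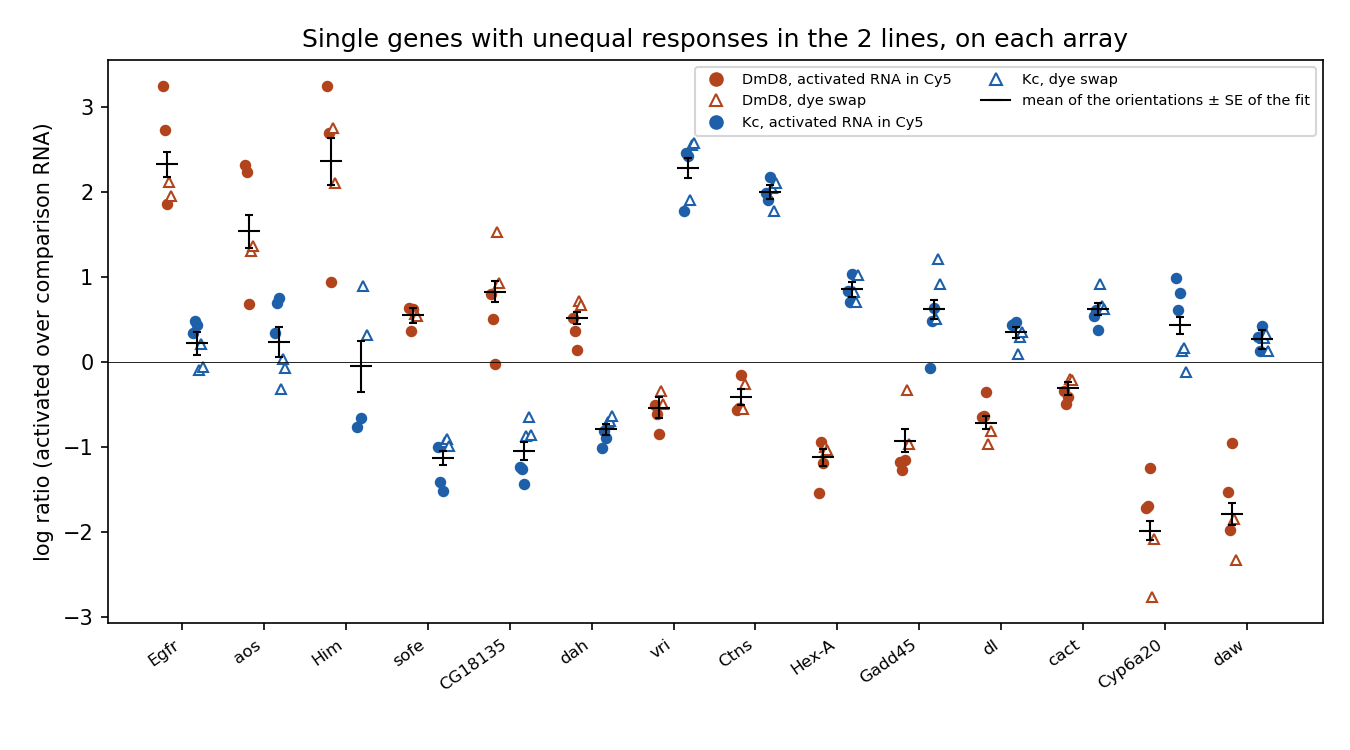
Log ratio of 14 genes on each DmD8 (red) and Kc (blue) array, with the mean ± SE of the fit in black; filled circles have activated RNA in Cy5 and open triangles are dye swaps. vri, Ctns and Hex-A are below 0 in DmD8 and above 0 in Kc on every array, and sofe and dah are the reverse.

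Only 20 named genes differed while passing the same way in both lines. Besides E(spl)m3-HLH, E(spl)m2-BFM and peb, these included Cyp6a23 and MME1, a mitochondrial magnesium exporter, both of which fell more in DmD8. Cyp6a23 fell to -1.78 ± 0.08 in DmD8 and -0.31 ± 0.07 in Kc, and MME1 to -1.52 ± 0.08 and -0.50 ± 0.08. CG15819 rose more in Kc, with a difference of -1.13 ± 0.12.

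Transcription factors were among the genes lower in DmD8. Of 20 tested zinc finger and other early factors, 13 rose in Kc and 3 in DmD8. Between the lines, 9 were lower and 2 higher in DmD8 (55%, beside 13.5% of all named genes). The list median difference was -0.37 beside -0.06 over all features. Of 13 clock and bHLH-PAS factors, 4 were lower (30.8%). They were dysf, a bHLH-PAS factor of the trachea, vri, Pdp1, which counters vri in the clock, and tgo, the common partner of bHLH-PAS factors. tgo was lost without DmD8 array 5. dysf had -0.92, -0.35, -0.84, 0.76 and 1.00 in DmD8 and 2.55 to 3.39 (median 3.01) in Kc, with a difference of -2.86 ± 0.17 (adjusted p = 4.59e-06). DmD8 arrays 1 to 3 were negative and the swaps positive. Among the other early factors, kay, the Fos subunit of AP-1, fell in DmD8 (-0.73) and rose in Kc (0.43), as did cnc, the Nrf2 homologue (-0.37 and 0.58). Atf3 rose in Kc alone (0.70), and its difference was -0.79 ± 0.13. Of 17 ecdysone response genes, 5 were lower (29.4%), led by Kr-h1, a zinc finger factor (-1.39 ± 0.15), and ImpL2, an insulin-binding protein. The count was 3 without DmD8 array 3 and 2 without DmD8 array 4, and none of the 5 passed under every pairing. Kr-h1 had values on only 3 DmD8 arrays, 1 of them a dye swap, and passed in all 24 pairings in which it could be tested. The 3 probes of ImpL2 disagreed (0.11, -1.40 and -1.17). Of 17 JNK and stress genes, 4 were lower and 1, cbt, higher (29.4%). Gadd45, a stress-induced gene, fell in DmD8 (-0.93 ± 0.13) and rose in Kc (0.62 ± 0.12). Of 19 Toll and immune genes, 3 were lower (15.8%), a share near the 10.9% of all features and the 13.5% of all named genes, so single members are described only. dl, the NF-kappaB factor Dorsal, had -0.64, -0.64, -0.35, -0.97 and -0.81 in DmD8 and 0.09 to 0.47 (median 0.39) in Kc. cact, its inhibitor, had a difference of -0.93 ± 0.10, and both lines lay on opposite sides of 0 in both genes.

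Signalling ligands and growth regulators followed. Of 17 Dpp and activin pathway genes, 6 were lower and 2 higher (47.1%, beside 13.5% of all named genes). The total was 4 or 5 without DmD8 array 1, 2 or 4 or Kc array 1 or 5, and 4 without both Kc arrays 2 and 5. daw, an activin-like ligand, had -1.53, -1.98, -0.95, -1.85 and -2.33 in DmD8 and 0.13 to 0.42 (median 0.29) in Kc. It fell in DmD8 and the lines did not overlap, with a difference of -2.05 ± 0.17 (adjusted p = 5.12e-05). wit, a type II BMP receptor with values on 4 DmD8 arrays, rose in Kc, with a difference of -0.86 ± 0.16. The BMP ligand gbb went the other way: it fell in Kc (-0.66) and stood at 0.12 in DmD8, a difference of 0.78 ± 0.10. Of 15 insulin and growth control genes, 5 were lower (33.3%), and 3 without DmD8 array 5. They included scyl, a relative of the TOR inhibitor REDD1 (-1.21 ± 0.22), and Sesn, a sestrin (-0.85 ± 0.14). Of 12 calcium handling genes, 5 were lower and none higher (41.7%), and none of the 5 passed under every pairing. The count was 3 lower without DmD8 array 1 or without both Kc arrays 2 and 5, 2 lower without DmD8 array 5, and 3 lower and 1 higher without DmD8 array 4. SERCA, the calcium pump of the endoplasmic reticulum, stood at -0.75 ± 0.13. Stim, a sensor of calcium stores, stood at -0.71 ± 0.17, which was lost without DmD8 array 1 or 4. Metallothioneins and metal transporters were not called more often than all features. Of 21 tested, 2 differed (9.52%), the zinc transporters Zip88E (0.50 ± 0.12) and foi (-0.49 ± 0.11). Without DmD8 array 5 neither passed and the count was 0, and Zip88E was also lost without DmD8 array 4. Without DmD8 array 3 the count was 4.

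Transporters and detoxification genes were lower in DmD8 more often than higher. Of 33 solute carriers and ABC transporters, 9 were lower and 1 higher (30.3%, beside 13.5% of all named genes). Without DmD8 array 4 the count was 6 lower and none higher. CG14606 had 0.003, -0.38, -0.29, 0.48 and 0.05 in DmD8 and 2.13 to 3.48 (median 2.95) in Kc, so that Kc stood apart from 0 and DmD8 near it, with a difference of -2.87 ± 0.21. Tret1-2, a trehalose transporter relative, had -1.87, -1.76, -1.30, -2.89 and -2.37 in DmD8 and -0.55 to 0.41 (median 0.01) in Kc. Here DmD8 stood apart from 0, where it fell, and the difference was -2.10 ± 0.14. Its neighbour Tret1-1, with no gene between them, fell likewise, and binding of each other's transcripts by their probes was not tested. Of 56 cytochrome P450 genes, 11 were lower and none higher (19.6%, beside 13.5% of all named genes), and 8 were lower under every pairing. Without Kc array 1 the count was 10 lower and 1 higher. Cyp4e2 and its neighbour Cyp4e1 rose in Kc, and Cyp4e2 had a difference of -1.64 ± 0.15. Cyp12d1-p and Cyp12d1-d are near-identical copies, so their values are uncertain. Of 35 glutathione and redox genes, 7 were lower and 2 higher (25.7%), or 4 lower and none higher without DmD8 array 4. The lower ones were led by Gclc, a glutathione synthesis enzyme (-1.38 ± 0.14), and GstD1 (-0.93 ± 0.12). GstD2, GstD3, GstD4 and GstD5, further glutathione transferases of the GstD family, had differences of -0.72, -0.91, -0.70 and -0.66, and cross-binding between family members was not tested. GstD4 was lost without DmD8 array 1, 4 or 5 and GstD5 without DmD8 array 4 or 5. Of 33 lipid genes, 5 were lower and 1 higher (18.2%, near the 13.5% of all named genes), or 3 and none without DmD8 array 2 or Kc array 5. Those that were lower included whd, a carnitine palmitoyltransferase (-1.18 ± 0.18), and LpR2, a lipoprotein receptor (-1.14 ± 0.14).

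The proteasome subunits, which form the cell's main protein-degrading particle, were lower in DmD8. Of 30 tested, 26 fell in DmD8 and 0 were called in Kc, and 22 differed between the lines. All 22 were lower (73.3%, beside 10.9% of all features and 13.5% of all named genes). The list median was -0.48 in DmD8 and 0.02 in Kc. On each array the median of the list lay between -0.55 and -0.39 in DmD8 and between -0.11 and 0.10 in Kc, without overlap. Of 14 core particle genes 9 were lower, with differences of all 14 from -0.67 to -0.22, and of 16 regulatory particle genes 13, with differences of all 16 from -1.07 to -0.17. Rpn13 had -0.76, -0.42, -0.42, -1.63 and -0.77 in DmD8 and -0.28 to 0.77 (median 0.10) in Kc, a difference of -1.07 ± 0.16 (adjusted p = 0.00188). Rpn1 had a difference of -0.92 ± 0.20, which was lost without DmD8 array 4. Under every pairing 2 subunits were lower, Rpn13 and Rpn5, and without DmD8 array 4 the count was 13.

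Of 27 genes of endoplasmic reticulum folding and the unfolded protein response, 11 were lower and none higher (40.7%, beside 13.5% of all named genes). The count was 7 lower without DmD8 array 1. Ire1, a sensor of unfolded protein, had -0.94, -1.29, -1.07, -1.34 and -1.04 in DmD8 and -0.05 to 0.21 (median 0.07) in Kc. The lines did not overlap, and the difference was -1.22 ± 0.11 (adjusted p = 7.04e-05). Sil1 and Herp, which act in folding and in degradation at the reticulum, had differences of -0.93, lost without DmD8 array 4, and -0.73. Hsc70-3, the chaperone BiP, and PEK, the kinase PERK, had differences of -1.18 ± 0.11 and -1.06 ± 0.13. Of 11 aminoacyl-tRNA synthetases, which charge tRNAs with amino acids, 5 were lower (45.5%), led by LeuRS (-1.04 ± 0.19) and ValRS (-1.01 ± 0.17). Of 13 genes of amino acid supply and the integrated stress response 5 were lower (38.5%). This count was 3 without DmD8 array 4, DmD8 array 5 or Kc array 5. JhI-21, an amino acid transporter, fell to -1.22 ± 0.11 in DmD8. ref(2)P, the autophagy receptor p62, fell to -1.19 ± 0.10 in DmD8, with a difference of -1.24 ± 0.13.

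Cell cycle genes went the other way. Of 28 tested mitosis genes, 8 were higher in DmD8 and 1 lower (32.1%). Among 33 G1/S and replication genes, 10 were higher and none lower (30.3%). Of all features 4.42% were higher and 6.51% lower, and 13.5% of all named genes differed. The medians of these lists were 0.16 and 0.19 in DmD8 and -0.02 and -0.05 in Kc. Without Kc array 3 or 6, DmD8 array 1 or 5, or both Kc arrays 2 and 5, the G1/S and replication count was 6. twe, a Cdc25 phosphatase, had 0.15, -0.02, -0.12, 0.36 and 0.29 in DmD8 and -0.67 to -0.43 (median -0.49) in Kc. It fell in Kc only, and the difference was 0.68 ± 0.09 (adjusted p = 0.0011). pim, the securin, and Rbf2, a retinoblastoma-family protein, also fell in Kc, with differences of 0.67 ± 0.11 and 0.80 ± 0.12. Orc5, of the origin recognition complex, had 0.64 ± 0.11. tum, aurB and Ndc80, which act in cytokinesis and at kinetochores, rose in DmD8 (0.51, 0.42 and 0.35). barr, a condensin subunit, was the mitosis gene that was lower (-0.66 ± 0.14). No mitosis or G1/S gene but twe and Rbf2 passed under every pairing.

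**Figure D5:**
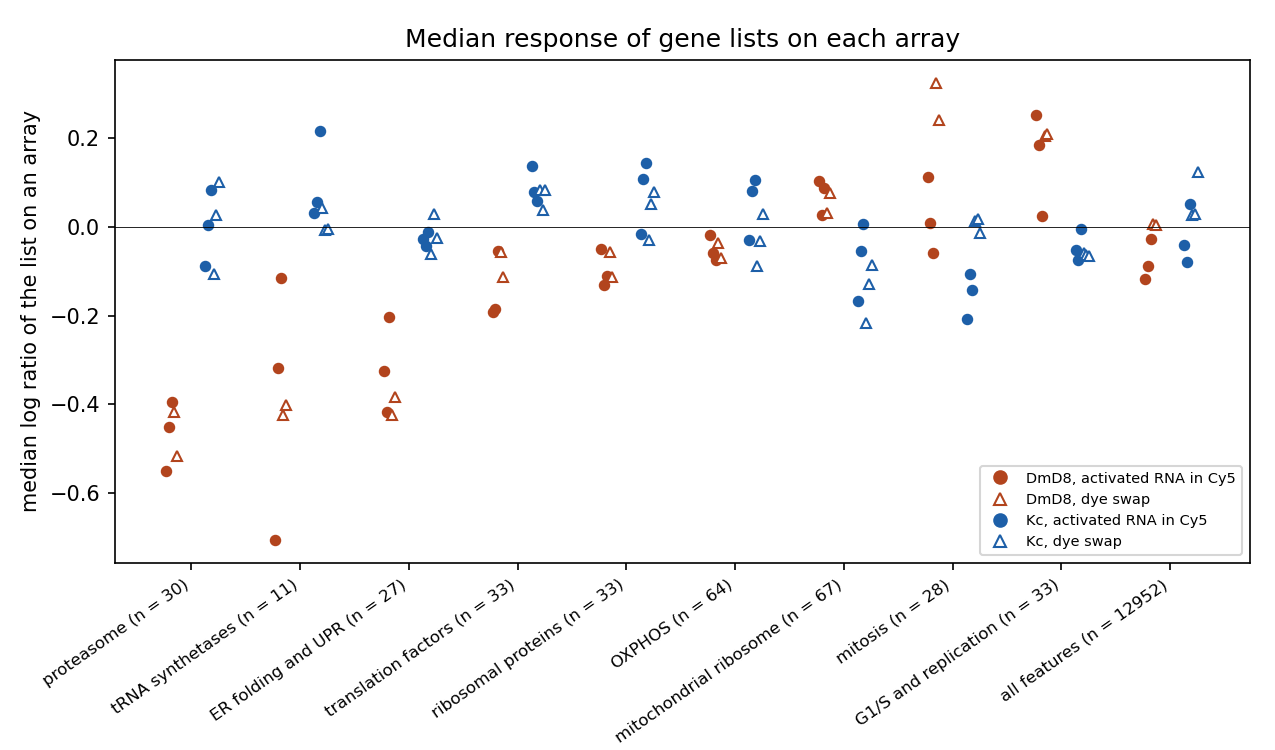
Median log ratio of the members of 9 gene lists and of all features on each DmD8 (red) and Kc (blue) array; filled circles have activated RNA in Cy5 and open triangles are dye swaps. The proteasome medians of DmD8 lie between -0.55 and -0.39, apart from those of Kc, while those of oxidative phosphorylation overlap.

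Several lists were near the background. Of 64 oxidative phosphorylation subunits 0 differed by limma (7 at an unadjusted p under 0.05), and of 11 cell death genes 0 (3 unadjusted), and either count was at most 1 when any single array was left out. Of 67 mitochondrial ribosomal proteins 3 were higher and 2 lower (7.46%), and of 33 cytosolic ribosomal proteins 5 were lower (15.2%). These counts are unsteady, since the first was 0 without DmD8 array 5 and the second 0 without DmD8 array 4 and 1 after centring. Of 14 heat shock proteins 2 were lower, but 0 without DmD8 array 4 and 1 without DmD8 array 1, Kc array 5 or both Kc arrays 2 and 5. Chromosome arms were alike in the share of named genes that differed, between 12.7% (3L) and 14.3% (2R) on the major arms. On X, 117 were higher and 75 lower in DmD8, whereas on 2R 94 were higher and 153 lower.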

How the data were processed

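RNA ratios were measured on 2-colour FlyChip FL002 arrays, whose spots were quantified with Dapple per the series' design text in the labels. Each probe has a log ratio on each array as deposited, and the scale was taken as log2 from the range, although a natural log is not excluded. The sources used here do not give the authors' background correction, normalization, spot filter, log base or ratio direction, or whether they turned the dye swaps.

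Probes were named from the platform annotation: 12658 had 1 symbol, 96 several and 4504 none. Gene IDs of 12012 probes were in the RefSeq gene table (Release 6), which was used only for names and gene order. The 436 genes with several probes were averaged over them. The model of limma 3.58.1 (R 4.3.3) held, for each line, its mean and a dye term, and p values were adjusted by Benjamini-Hochberg with a threshold of 0.05. On simulated data with 12952 features the fit recovered 75% of 100 differences of size 1 and 31% of 100 of size 0.5, with 6 false calls. The simulated arrays had independent errors, unlike swaps that repeat an RNA. The number of false calls in the real data therefore cannot be read from it. The number of arrays limits the precision. Figures were drawn with matplotlib 3.10.9.

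The members, gene lists and tests were chosen with earlier results of these data known. Named genes were the 12 highest and 12 lowest differences that passed under every pairing, all tested E(spl) and Bearded genes, the 6 largest differences among genes called in opposite directions and among genes called the same way in both lines, and in each list the 2 largest differences past the threshold. Further list members (Tret1-1, Cyp4e1, Cyp12d1-p, Cyp12d1-d, Pdp1, tgo, Rpn5, kay, cnc, Atf3, gbb, GstD2 to GstD5, Sil1, Herp, tum, aurB, Ndc80 and barr) were named after their values were seen, to show which genes a count holds. Alternatives covered centring, missing values, dye terms, orientation, replication and probes, and each array was left out in turn.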

Additional observations from a re-analysis of the deposited data

Results flagged for a closer look

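The difference between the lines is itself a difference of 1 contrast between groups: 1415 features passed the limma test of it, 572 higher and 843 lower in DmD8. Of the genes described above, 15 passed in opposite directions in the lines. The differences DmD8 minus Kc were 1.88 for CG18135, 1.76 for Dph1, 1.68 for sofe and 1.31 for dah. The lower ones were -2.82 for vri, -2.42 for Cyp6a20, -2.41 for Ctns, -2.38 for CG14961, -2.12 for Mrp4, -1.98 for Hex-A, -1.64 for Cyp4e2, -1.54 for Gadd45, -1.14 for LpR2, -1.06 for dl and -0.93 for cact.

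In 7 of 193 groups of 4 to 6 arrays, a single array stood far from the others, where chance flags about 1 in 20 groups. drl had 0.71 on DmD8 array 3, below the other DmD8 arrays, and 0.96 on Kc array 4, above the other Kc arrays. CG11893 had -0.48 on DmD8 array 3, where the others lay between -3.01 and -2.42. CG14961 had 1.19 on Kc array 1, below the others. DnaJ-1, a heat shock co-chaperone, had -0.63 and Vha44, a subunit of the vacuolar proton pump, -0.58 on DmD8 array 4, both below the others. Orc5 had 0.58 on DmD8 array 1, above the others. Of these, drl, CG11893, CG14961 and Orc5 kept their difference between the lines without each array in turn; DnaJ-1 was lost without DmD8 array 4, and Vha44 when any 1 of 9 arrays was left out and in all 36 pairings.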

How the results depend on the processing

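The count of features that differ between the lines was within 1.5 times of 1415 under centring (1376), complete features (1456), no filter (1390), a shared dye term (1443), robust variances (1310) and separate probes (1465). It was 193 (69 higher, 124 lower) on the Cy5 arrays alone, 225 (51 and 174) on the dye swap arrays alone and 505 (163 and 342) without a dye term. Averaging swaps left 267 (69 and 198) under every pairing. It left 487 (137 and 350) when a swap was joined to the replicate whose number is 3 lower, a pairing chosen after seeing the data. The deviations of each swap from its orientation mean correlated most with those of that replicate. The values were 0.54, 0.40 and 0.33 for Kc arrays 4 to 6 and 0.29 for each DmD8 swap, and the DmD8 swaps mirror each other by construction. Correlations with other replicates of the line lay between -0.34 and 0.06. Leaving out 1 array gave 808 to 1292 features, 311 to 517 higher and 497 to 775 lower, and leaving out Kc arrays 2 and 5 gave 859 (291 and 568). With the replicate block the count was 543 (179 and 364); the numbers do not pair samples of the lines, since same-numbered deviations correlated between -0.33 and 0.20. With the swaps turned in sign 0 features were called (0 higher, 0 lower). A turned difference follows from the difference on the Cy5 arrays minus that on the swap arrays as deposited. Its sign shows which orientation gave the higher value. Of 98 named genes, 51 then reversed, all with adjusted p of at least 0.646. Those that became negative were Sirup -0.32, Dph1 -0.17, ptc -0.16, CG18135 -0.15, aos -0.15, drl -0.12, mRpL20 -0.094, twe -0.093, Ski6 -0.080, dah -0.066, peb -0.045, por -0.031, E(spl)mdelta-HLH -0.026. Those that became positive were cact 0.0092, slmb 0.011, scyl 0.028, Hsc70-5 0.034, Dgp-1 0.045, MME1 0.054, Cyp6a20 0.061, LeuRS 0.062, Stim 0.068, eIF2Bdelta 0.069, dl 0.071, ImpL2 0.077, ref(2)P 0.078, Tom 0.079, Ire1 0.090, Cyp6a23 0.093, shot 0.094, LpR2 0.099, gro 0.10, mRpL28 0.10, dia 0.10, SERCA 0.10, RpL3 0.11, Tret1-2 0.11, kuz 0.11, CG15819 0.12, ValRS 0.16, Kr-h1 0.17, nAChRalpha1 0.17, Hsc70-3 0.18, Sesn 0.18, daw 0.28, srp 0.29, Mrp4 0.30, RpL27 0.30, CG11893 0.33, Cyp4e2 0.33, zfh1 0.41. Smaller reversals concerned E(spl)m7-HLH, Tom and gro, whose differences had not passed, and ImpL2, whose difference had. E(spl)m7-HLH was -0.17 on the dye swap arrays, -0.069 without DmD8 array 2, -0.037 without DmD8 array 5, -0.032 without Kc array 1 and -0.11 without Kc array 4, against at most 0.13 without any other array (Kc array 6). Tom was -0.63 without Kc array 4, 0.0072 without Kc array 3, 0.16 without Kc array 6 and 0.16 with the replicate block, and gro 0.0016 without Kc arrays 2 and 5. With probes kept separate the first ImpL2 probe gave 0.11, against -0.82 for the gene. The cause of the smaller reversals was not tested. Of the 98 named genes, 94 passed and 69 of these passed without each array in turn, and 54 under every pairing. Signal over background is not in the values used here.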

Other observations

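Further lists were read beside the 10.9% of all features and the 13.5% of all named genes that differed. Of 15 mesoderm and muscle regulators, 2 were higher and 4 lower in DmD8 (40%), with Kr, a zinc finger repressor, at -1.05 ± 0.14. Without DmD8 array 4 or 5 the count was 1 higher and 2 lower. Of 14 wing disc patterning genes 1 was higher (7.14%), twi, a mesodermal bHLH factor, at 0.93 ± 0.24, which was lost when any 1 of 6 arrays was left out and passed in 15 of 36 pairings. Of 16 blood cell genes 4 were lower (25%), but 2 after centring, without DmD8 array 3 or 5, without Kc array 1, 2 or 4 or without both Kc arrays 2 and 5, and 0 without a dye term. The 4 included srp, a GATA factor of blood cells, at -0.54 ± 0.11, and Pvf2, a growth factor, at -0.74 ± 0.14. None of the 4 passed under every pairing. Of 17 neural and sensory organ genes 1 was higher and 2 lower (17.6%), or 1 lower alone without Kc array 4. The largest difference was that of nAChRalpha1, an acetylcholine receptor subunit, at -1.66 ± 0.15. Of 35 genes of integrins, cadherins and matrix 2 were higher (5.71%), Reck at 1.23 ± 0.28 and wb, a laminin, at 0.56 ± 0.16. Reck was lost without DmD8 array 4, and wb when any 1 of 9 arrays was left out, passing in 8 of 36 pairings. Of 23 cytoskeleton genes 3 were lower (13.0%). The count was 1 after centring or without DmD8 array 5 or Kc array 1 or 2, and 0 without DmD8 array 1, DmD8 array 4 or Kc array 5. Of 12 Hedgehog pathway genes 2 differed (16.7%). The receptor ptc was higher, at 0.57 ± 0.17, and slmb, a ubiquitin ligase subunit, lower, at -0.49 ± 0.10. ptc was lost when any 1 of 9 arrays was left out.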
